A study of Mus musculus with 3 samples.

Results

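The genes described here are 8 of the mouse interferon regulatory factor (IRF) genes, Irf1, Irf2, Irf3, Irf4, Irf5, Irf7, Irf8 and Irf9, and the data are the PU.1 ChIP-seq peaks around them. Members were taken by name from a list of 21887 protein-coding genes with a RefSeq span on GRCm38 (mm10). Each gene's peaks were those overlapping its span plus 20 kb on each side, or plus 60 kb for Irf8, so that its distal enhancers were taken in. These windows held 71 of the 74494 peaks of replicate 2, 7 of the 6169 peaks of replicate 3 and 61 of the 49385 intervals of a merged list. Chromatin came from i660BM cells, a C57BL/6 pro-B cell line with a PU.1-inducible system, grown with IL-7. Both PU.1 libraries (replicates 2 and 3, numbered as in the labels) were from induced cells, at 70 ng/ml doxycycline for 24 h, and used the same rabbit polyclonal antibody, T-21. An input sample is not analysed here. As there is 1 group, no comparison with uninduced cells was made, and binding that depends on the induction cannot be told apart from binding that does not. Nothing in the labels says that the libraries came from separate cultures. Peak lists measure neither gene expression nor the identity of the cells.

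IRF proteins share an amino-terminal DNA-binding domain with a cluster of conserved tryptophans, which contacts GAAA cores in interferon response elements. IRF4 and IRF8 bind such sites weakly alone and are recruited by PU.1 or the related Spi-B to composite elements, in which an ETS core (GGAA) lies close to an IRF core (GAAA). In B cell precursors, IRF4 and IRF8 act together in the step from cycling to small pre-B cells, at which light chain genes are rearranged. The other members act chiefly in interferon production and in the response to interferon.

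At the start of Irf2, peaks of both libraries lay over a promoter with an ETS-IRF composite element. RefSeq promoter windows on GRCm38.p6, which run from 250 bases before to 50 bases after a start, were found for all 8 genes, 11 windows in all because Irf1, Irf8 and Irf9 have more than 1 start. Each was searched on both strands for the PU.1 site GAGGAAGT, the ETS-IRF composite element GGAANNGAAA and the interferon response element GAAANNGAAA. Matches were found in the Irf2 window, which held the composite and the interferon element, and 10 of the 11 windows held none of the motifs. In Irf2 the matches overlapped by 4 bases and together covered 16 bases, from 247 to 232 bases before the start. Of 21263 promoter windows of protein-coding genes, 2.53% held the composite element, 3.35% the interferon element and 3.13% the PU.1 site. Both of the first pair were in 41 windows (0.193%), and 2 of these 41 lay under a replicate 3 peak. Whether the elements bear on the Irf2 peaks was not tested. Irf2 was also the member whose window was overlapped by a replicate 3 peak. Its promoter is shown with those of Irf4, whose window lay under a weak replicate 2 peak, and of Irf7 and Irf8, whose windows were overlapped by no peak in either library. Capitals mark the bases that match a motif, and each sequence is given 5′ to 3′ along its gene.
Irf2 (chr8:46739495-46739794, plus strand): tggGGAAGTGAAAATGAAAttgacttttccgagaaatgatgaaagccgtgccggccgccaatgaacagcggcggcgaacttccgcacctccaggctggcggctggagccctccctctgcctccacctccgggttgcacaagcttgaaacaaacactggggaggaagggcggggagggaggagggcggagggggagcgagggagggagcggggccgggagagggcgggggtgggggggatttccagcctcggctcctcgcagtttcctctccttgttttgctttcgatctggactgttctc
Irf4 (chr13:30748983-30749282, plus strand): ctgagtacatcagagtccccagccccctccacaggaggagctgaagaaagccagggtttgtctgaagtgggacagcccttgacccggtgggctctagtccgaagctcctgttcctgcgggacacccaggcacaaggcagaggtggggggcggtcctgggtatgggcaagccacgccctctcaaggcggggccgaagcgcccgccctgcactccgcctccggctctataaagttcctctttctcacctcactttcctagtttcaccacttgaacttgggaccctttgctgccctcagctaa
Irf7 (chr7:141266375-141266674, minus strand): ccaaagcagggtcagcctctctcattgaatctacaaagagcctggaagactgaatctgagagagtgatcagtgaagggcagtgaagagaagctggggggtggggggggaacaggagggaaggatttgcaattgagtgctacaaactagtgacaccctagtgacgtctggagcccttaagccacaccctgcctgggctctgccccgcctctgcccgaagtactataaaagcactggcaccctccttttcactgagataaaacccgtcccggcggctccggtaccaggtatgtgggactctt
Irf8 (chr8:120736108-120736407, plus strand): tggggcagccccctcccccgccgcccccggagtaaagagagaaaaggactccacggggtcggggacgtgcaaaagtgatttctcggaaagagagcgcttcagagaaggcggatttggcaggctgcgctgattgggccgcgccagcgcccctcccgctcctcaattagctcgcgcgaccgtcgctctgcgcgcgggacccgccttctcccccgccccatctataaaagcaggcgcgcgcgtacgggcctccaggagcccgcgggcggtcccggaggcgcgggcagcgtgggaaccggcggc
A match is a run of letters and not a measured binding site, and a peak of about 1 kb does not say which bases were bound.

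PU.1 peaks lay in the window of every member in replicate 2, and of 5 members in replicate 3. Irf2 and Irf4 each held 2 regions with overlapping peaks of both libraries (shared regions, 1 bp or more in common), and Irf5, Irf7 and Irf8 held 1 each. Irf1, Irf3 and Irf9 held none. Within 20 kb of the span, 24.2% of all protein-coding genes had a shared region, 84.2% had a replicate 2 peak and 76.1% had a merged interval. All 8 members had a replicate 2 peak and a merged interval in that window. Longer genes offer a wider window. Among genes with a span under 25 kb the share with a shared region was 19.3%, and 4 of the 7 members of that size had one. With 60 kb on each side the share was 41.3%, and 7 of the 8 members had one, all but Irf9. A replicate 3 peak lay on 7 of the 71 replicate 2 peaks of the windows. This share of 9.86% (Clopper-Pearson 95% interval 4.06 to 19.3, counting error only) is near the 8.24% of the whole replicate 2 list. The interval treats the 71 peaks as independent, which neighbours in a window are not.

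**Figure D1:**
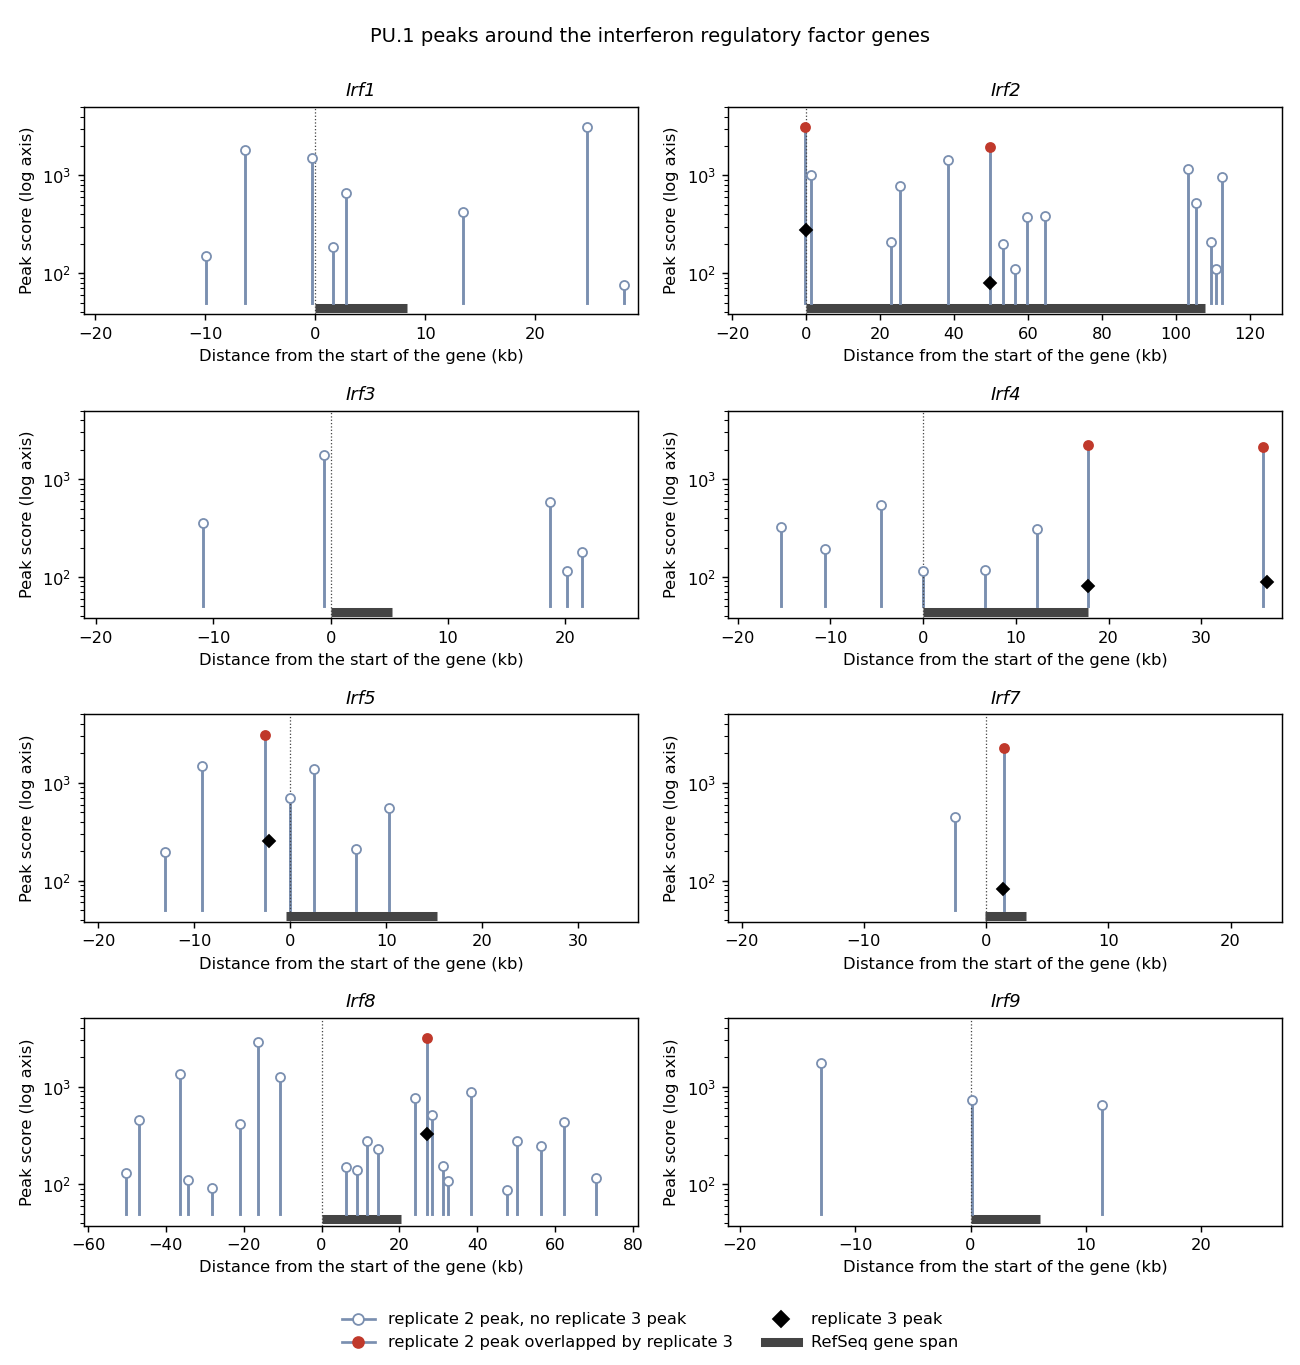
PU.1 peaks in the window of each gene, drawn as the distance of the peak's middle from the gene's start along the gene (kb) against the authors' peak score (log axis). Lines with circles are replicate 2 peaks, filled where a replicate 3 peak overlaps, diamonds are replicate 3 peaks, and the bar at the bottom is the RefSeq span. Irf8 has the most replicate 2 peaks (23, in the widest margins) and none across its start, and Irf1, Irf3 and Irf9 have no replicate 3 peak.

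Irf4 encodes a PU.1 partner that acts with IRF8 in the step at which light chain genes are rearranged. The highest scores of Irf4 lay at and beyond its far end. A replicate 2 peak with a score of 2218 crossed the far end of the span and was overlapped by a replicate 3 peak scored 81.3 (shared region chr13:30766490-30767570). The score is that of the authors' peak caller and grows with the strength of the evidence for a peak, from a minimum of 70.0 in both lists. A further shared region lay 17.9 kb beyond that end, with scores of 2146 and 88.9 (chr13:30784844-30786867), and the protein-coding gene nearest to it was Exoc2, which encodes a subunit of the exocyst. Across the start, replicate 2 had a peak of 116 and replicate 3 had none. The other 5 replicate 2 peaks of Irf4 scored from 118 to 547. In replicate 2, 6.61% and 6.94% of peaks scored as high as these regions. In the shorter replicate 3 list the shares were 86.4% and 78.8%, and shares of lists of such different length are not comparable.

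Irf8, which encodes the other PU.1 partner and is itself needed for monocyte and dendritic cell development, had many peaks on both sides of the gene. Of its 23 replicate 2 peaks, 8 lay before the gene, 4 inside the span and 11 beyond its far end. Neither of its 2 RefSeq starts was overlapped, and the nearest peaks to the first were centred 10.8 kb before it (score 1254) and 6.3 kb after it (149). The shared region lay 27.1 kb from the start, 6.18 kb past the far end (chr8:120762876-120763994), and scored 3100 in replicate 2 and 328 in replicate 3. That replicate 3 score was the highest of the members, with 14.5% of the list scoring as high. A peak 16.2 kb before the start scored 2882 in replicate 2 and had no replicate 3 peak. Enhancers of Irf8 used in myeloid cells have been described far before and far beyond the gene. In replicate 2 the outer margins held peaks from 50.2 kb before the start to 70.6 kb after it, none of them with a replicate 3 peak. They scored from 88.1 to 1356, the highest of them 36.3 kb before the start. That peak and the others from 50.2 to 34.3 kb before the start had Cox4i1 as their nearest protein-coding gene, not Irf8. Over the same 20 kb margins as the other genes, Irf8 held 12 replicate 2 peaks.

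Irf1 and Irf2, the founding pair of the family, bind the same sites as an activator and chiefly a repressor of interferon responses. Peaks at the Irf2 start scored 3100 in replicate 2 and 279.8 in replicate 3 (shared region chr8:46738911-46740279), where 18.4% of replicate 3 peaks scored as high. This region also covers an end of Gm16675, a long non-coding RNA gene beside Irf2. The other Irf2 region lay inside the span, 49.8 kb from the start, with scores of 1952 and 80.0 (chr8:46789061-46790092). Irf2 is the longest member (108 kb), and 11 of its 15 replicate 2 peaks lay inside it.

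Irf1 had strong peaks in replicate 2 alone. A peak centred 24.7 kb from its start, beyond the far end and inside the non-coding gene Gm12216, scored 3100 (chr11:53793500-53795989). Another at 6.4 kb before the start scored 1826 and covers the microRNA gene Mir7671, and the peak across the start scored 1498. The remaining 5 scored from 75.1 to 667. The closest replicate 3 peak lay 40.4 kb from the Irf1 span, with Il5 as its nearest protein-coding gene. A replicate 2 score of exactly 3100 was matched in replicate 3 for 2371 of 2431 peaks (97.5%), so the Irf1 peak is among the 60 such peaks that were not.

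Irf3, Irf5 and Irf7 encode factors that are activated downstream of pattern-recognition receptors and switch on interferon and cytokine genes. Irf5 had a shared region 2.6 kb before its start, overlapping the non-coding gene Gm26627, with scores of 3100 and 252 (chr6:29523074-29525070). The peak across the Irf5 start scored 701 in replicate 2. Irf7, the regulator of type I interferon production by plasmacytoid dendritic cells, had a shared region inside its span, 1.5 kb from the start (2261 and 83.0, chr7:141264417-141265472). Its only other replicate 2 peak, 2.5 kb before the start, scored 449 and overlaps Cdhr5. At Irf3 a replicate 2 peak of 1758 crossed the start (chr7:44995693-44998431) and had no replicate 3 counterpart. That peak also overlaps Bcl2l12, whose span lies beside the Irf3 start, so it cannot be given to either gene. The remaining peaks of the Irf3 window scored from 116 to 590 and overlap Prmt1, Scaf1 or Rras, which were their nearest protein-coding genes. The closest replicate 3 peak lay 59.1 kb from the Irf3 span.

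Irf9 encodes the DNA-binding subunit of a complex that type I interferon activates. Its window held 3 replicate 2 peaks and no replicate 3 peak. The strongest, at 1743, lay 13.0 kb before the start, overlaps both Psme2 and Rnf31 and had Psme2, a proteasome activator gene, as its nearest. The peak across the Irf9 start scored 722 and also overlaps Rnf31. The remaining peak, 11.4 kb after the start, scored 641 and had Rec8 as its nearest protein-coding gene. The closest replicate 3 peak was 61.7 kb from the span.

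Replicate 2 had a peak across the start of 6 members, in the order Irf2 (3100), Irf3 (1758), Irf1 (1498), Irf9 (722), Irf5 (701) and Irf4 (116), and across no start of Irf7 or Irf8. With 1 library behind this order, no spread can be set against the gaps between neighbours. A promoter window was overlapped by a replicate 2 peak in 36.6% of protein-coding genes with such a window, and by a replicate 3 peak in 2.91%, beside 6 and 1 of the 8 members. Promoter windows under replicate 3 peaks were also read for the motifs. The PU.1 site was in 21.6% of 580 windows under a replicate 3 peak, against 3.13% of all, and the composite element, as in Irf2, in 4.48% against 2.53%. The interferon element was in 3.62% of them. Of 7459 windows under a replicate 2 peak, 4.87% held the PU.1 site, 2.775% the composite element and 3.45% the interferon element.

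Whether a member peak was found in both libraries followed its replicate 2 score in most cases. Replicate 2 peaks of 1900 to below 3100 had a replicate 3 peak in 67.5% of cases across the list, and 4 of the 5 in member windows did. Of those at 3100 or above, 97.1% did across the list and 3 of 4 in member windows. From 1000 to below 1900 the list gave 15.9% and the members 0 of 11, and below 1000 it gave 0.103% and 0 of 51. In the band from 1900 to below 2500 the list gave 57.7% and the members 4 of 4. The edge at 1900 fell between the highest member peak below it (1826, unmatched) and the lowest matched member peak (1952). The member counts of the bands therefore depend on where that edge was set. The exceptions above 1900 were the Irf8 peak of 2882, in a band from 2500 to below 3100 where 83.0% of peaks were matched, and the Irf1 peak of 3100. In replicate 3, 4 of the 7 member peaks scored under 100, against 29.7% of the list. Their median was 88.9, against 136 for all replicate 3 peaks.

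**Figure D2:**
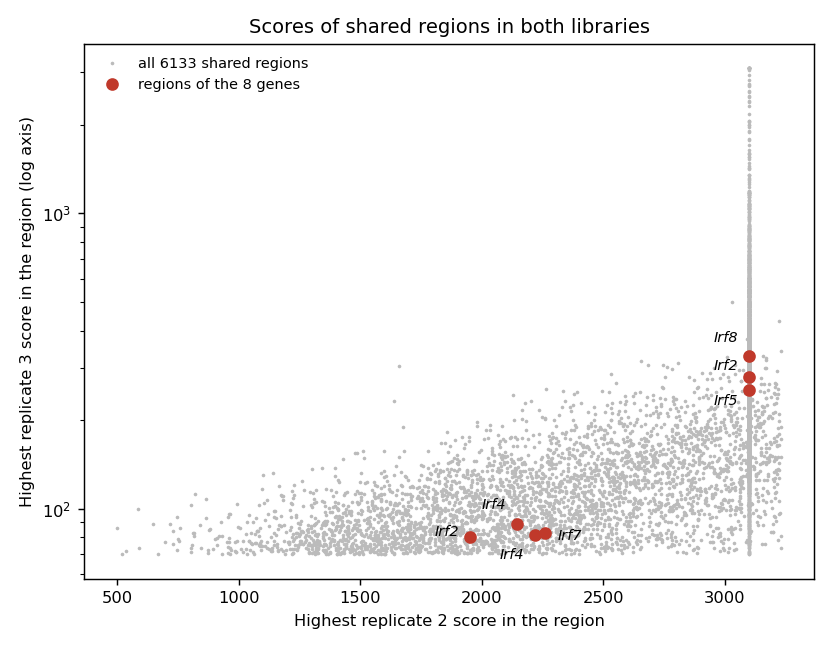
Highest replicate 2 score (x axis) against highest replicate 3 score (y axis, log) of each shared region, both in units of the authors' peak score. Grey points are all 6133 shared regions and red points the 7 regions of the IRF genes. The regions of Irf8, Irf2 (start) and Irf5 stand at 3100 with replicate 3 scores of 252 to 328, and the other 4 lie between 1952 and 2261 with replicate 3 scores under 100.

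Peaks were packed more densely around most of the IRF genes than around a typical gene. With 20 kb on each side, Irf8 held 19.9 replicate 2 peaks per 100 kb, and 0.457% of protein-coding genes had as many or more. Irf1 held 16.5 (1.44% of genes as many or more), Irf4 13.9 (3.29%), Irf5 12.6 (4.82%), Irf3 11.1 (7.95%) and Irf2 10.2 (10.3%). Irf9, with 6.52 (28.6%), and Irf7, with 4.62 (43.5%), lay nearer to the median of 4.05 over all genes. The densest of them, Irf8 and Irf1, had 1 and 0 replicate 3 peaks. The peaks also scored higher: the median was 430.0 over the 71 member peaks and 232 over the replicate 2 list. By member, the median ran from 275 (Irf8, 23 peaks) to 1355 (Irf7, 2 peaks). Of the member peaks, 28.2% reached 1000, against 17.6% of the replicate 2 list. That list was not limited to gene windows, as the member peaks were. Peaks of a window are neighbours and not independent. Those of the Irf3 window each had another protein-coding gene as the nearest. The protein-coding genes most like Irf2 by numbers of peaks in replicate 2 and replicate 3 (15 and 2), and then by the replicate 3 score, were Zfand3, Plcg2 and St8sia4. Those most like Irf4 (8 and 2) were Larp4, Rfc1 and Pdcd4. This likeness rests on 2 libraries.

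**Figure D3:**
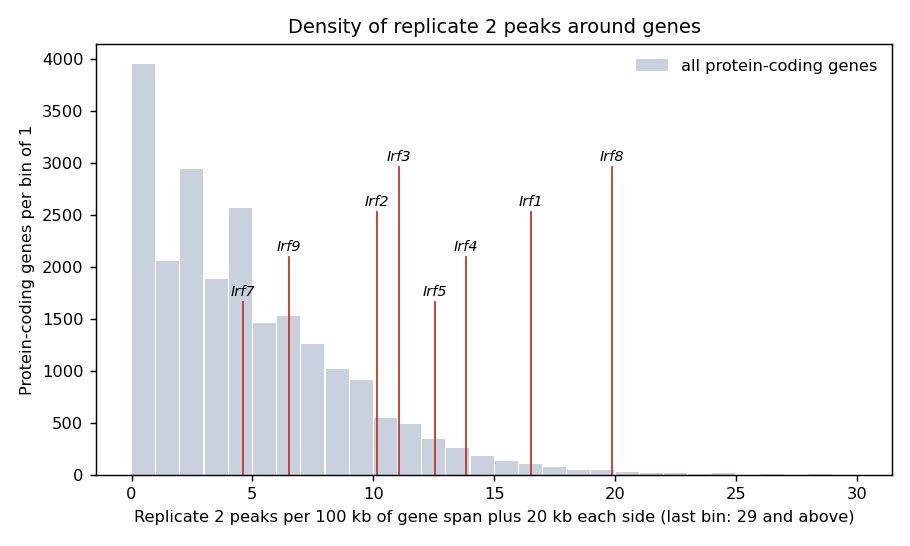
Number of replicate 2 peaks per 100 kb of gene span plus 20 kb on each side (x axis) for all 21887 protein-coding genes (bars, genes per bin of 1 peak) and for the 8 IRF genes (red lines, whose height has no meaning). Irf8, Irf1, Irf4, Irf5, Irf3 and Irf2 lie between 10.2 and 19.9 peaks per 100 kb, to the right of most genes.

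In the merged list every member kept at least 2 intervals: 17 for Irf8, 14 for Irf2, 7 each for Irf1, Irf4 and Irf5, 4 for Irf3, 3 for Irf9 and 2 for Irf7. Of the 71 replicate 2 peaks, 61 overlapped a merged interval (85.9%, against 66.5% of the list). The 10 left out scored from 75.1 to 154, and 6 of them were in the Irf8 window, among them the peak 50.2 kb before its start. The weak peak across the Irf4 start was kept.

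Genes that act before and after the IRFs were read from 4 lists, by the share with a shared region within 20 kb, beside the 24.2% of all protein-coding genes. A region counted for each gene within 20 kb of it, also where another protein-coding gene was nearer. This held for Stat2, Myd88, Isg20, Ifit3 and Spib, besides the genes named so below. Interferon receptors and their JAK-STAT partners had a shared region at 5 of 12 genes. The highest replicate 3 scores were 393 for Ifnar1, which encodes a chain of the type I receptor, 245 for Ifngr2, a chain of the interferon-gamma receptor, and 143 for the kinase gene Jak1. Of the sensors, adaptors and kinases that activate IRF proteins, 8 of 16 had a shared region, led by Tlr9 (323), Tlr4 (310) and the adaptor gene Ticam1 (205), although the Ticam1 region was nearer to Fem1a.

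Interferon-stimulated genes had one at 9 of the 22 that were matched as protein-coding, of 24 listed. Oasl1, of the oligoadenylate synthetase-like genes, led with 291, followed by Ifi35 (172) and Samd9l (124). The first of these regions was nearer to Oasl2 and the second to Rpl27. Some of these genes are counted through the same region, as Oas2 with Oas3 and Psmb9 with Tap1. Isg15 and Oas1a had no peak in either library within 20 kb. DNA-binding partners and regulators of IRF proteins had a shared region at 8 of 12 genes, led by Ikzf1 (409), the gene of Ikaros, Spi1 (207), which encodes PU.1, and Prdm1 (156), the gene of Blimp-1. The Spi1 region lay 11.2 kb from its span and was nearer to Slc39a13. The median number of replicate 2 peaks per 100 kb was 8.85, 5.71, 7.39 and 10.7 over these lists in the order given, against 4.05 over all genes.

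**Figure D4:**
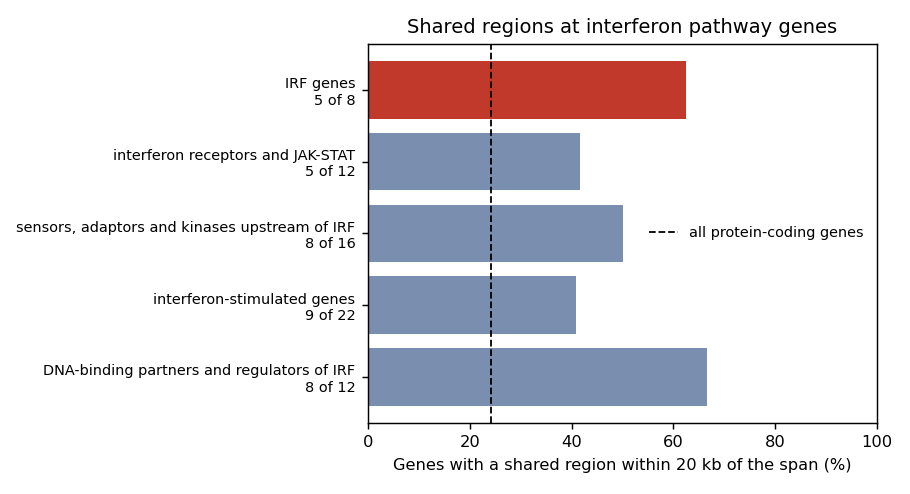
Percent of genes with a shared region of both PU.1 libraries within 20 kb of the gene span (x axis) for the 8 IRF genes and for 4 lists of interferon pathway genes, with the count beside each name. The dashed line is the 24.2% of all protein-coding genes, and each bar ends to the right of it.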

How the data were processed

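PU.1 ChIP-seq was analysed from the peak lists of 2 libraries of 1 group and a merged list. Per the submitters' processing notes, Trim Galore, Bowtie and MACS 1.4.1 were used on build mm10. Peaks were called per sample. The sources used here give neither how the merged list was made nor which control served for the calling. The deposited score of each peak is the authors' own and was taken as −10 log10 of its p-value, the form that MACS 1.4.1 writes. It is not normalized between libraries and was compared only within its list. In replicate 2, 2431 peaks score exactly 3100 and 225 score more, up to 3233, so the order of peaks at 3100 and above is uncertain. Merged intervals have a score of 0 and gave positions alone. Read depth was not used, and the length of a list does not measure it. Why the 2 lists differ in length was not tested.

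Peaks sharing 1 bp or more were joined, and joined regions holding peaks of both lists were called shared. Gene spans came from RefSeq (GRCm38.p6), without exons, and starts and strands from the RefSeq promoter table, using the first start of a gene. Overlap code was tested on simulated data. Python 3.11.15, pandas 2.3.3 and scipy 1.17.1 were used. No test was made, as there is 1 group.

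All members are named, with the gene nearest to a shared region, up to 3 genes per pathway list with the highest replicate 3 scores, and the genes with the most similar peak numbers. Il5, Cox4i1, Rec8 and genes overlapping a peak were named after their values were seen. So were Isg15, Isg20, Ifit3, Oas1a, Oas2, Oas3, Psmb9, Tap1, Stat2, Myd88 and Spib. Some genes that the rule names are not reported here. Members and lists were chosen with earlier results of these data known. Alternatives were other windows, a score minimum, reciprocal overlap, nearest-gene assignment, single lists and the merged list.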

Additional observations from a re-analysis of the deposited data

How the results depend on the processing

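The main values were 5 members with a shared region, 7 shared regions in all, 1 in the Irf8 window, and 9.86% of replicate 2 peaks overlapping a replicate 3 peak. When both lists were held to scores of 100 or more, 3 members (Irf2, Irf5 and Irf8) held 3 regions. Irf4 and Irf7 were lost because their replicate 3 scores lie under 100. The share of replicate 2 peaks with a replicate 3 peak fell to 4.41%, beside 7.11% of the whole list under the same minimum. With 5 kb on each side, Irf8 held 0 shared regions, since its region lies 6.18 kb from the span. Merged intervals gave 8 members, 61 regions and 17 for Irf8. Leaving out each library gave 5 to 8 members, 7 to 71 regions and 1 to 23 for Irf8, with the lower values from replicate 3 alone and the higher from replicate 2 alone. The remaining alternatives (20 kb or 60 kb for every member, reciprocal overlap of 50%, nearest-gene assignment) stayed within 1.5 times the main counts, and the share ran from 8.55% to 12.8% over its other alternatives. Replicate 3 holds 6169 peaks against 74494, so a member without a replicate 3 peak was not detected there, which does not show that PU.1 was absent.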
